A study of Caenorhabditis elegans with 2 samples.

Results

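The 10 genes described here, mec-2, mec-4, mec-6, mec-7, mec-9, mec-10, mec-12, mec-14, mec-17 and mec-18, are terminal genes of the touch receptor neurons of Caenorhabditis elegans, with products that include channel subunits and their partners, tubulins, a secreted protein and enzyme-like proteins. They were chosen by name for that role, from 19973 protein-coding genes on the nuclear chromosomes, and all 10 were found in the annotation. The choice was made with earlier results of these data known. Binding of LIN-32, a proneural basic helix-loop-helix (bHLH) transcription factor of the Atonal family, was mapped in worm embryos by chromatin immunoprecipitation and sequencing (ChIP-seq). Strain OP740 carries the transgene wgIs740, in which lin-32 is joined to TY1, EGFP and 3xFLAG tags beside an unc-119(+) rescue marker, in unc-119(tm4063) worms. Chromatin from bleached, mixed-sex, mixed-stage embryos with a labelled age of 3 h was recovered with an antibody to GFP in 2 biological replicates. There was 1 group and no second condition, so no comparison between conditions could be made. Both replicates came from the same transgenic line and were called against 1 control alignment. Whole embryos were used, so a peak cannot be assigned to touch receptor neurons or to any other cell type.

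Touch receptor neurons sense gentle touch to the body through a channel of the degenerin/ENaC family, held in the neurite membrane over a bundle of unusually large microtubules. In genetic work on the worm, LIN-32 acts early, in the precursors of these and other sensory neurons. The homeodomain proteins UNC-86 and MEC-3 then switch on the terminal genes, which include those described here. MEC-4 and MEC-10 form the channel pore, MEC-2 is a stomatin-like partner, and MEC-6 is a paraoxonase-like protein needed for channel assembly. MEC-7 and MEC-12 are a beta-tubulin and an alpha-tubulin, and MEC-17 acetylates alpha-tubulin. MEC-9 is a secreted protein with EGF-like and Kunitz domains. MEC-14 resembles aldo-keto reductases, and MEC-18 resembles acyl-CoA ligases and luciferases.

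Peaks were taken from 4 deposited lists: 26004 pooled peaks called on both replicates together, 1042 peaks kept by the irreproducible discovery rate (IDR) step, which looks for peaks that replicate, 30000 peaks of replicate 1 and 22601 nuclear peaks of replicate 2. Peaks were ranked within each list by the authors' deposited signal value, with rank 1 the strongest. The IDR peaks were the pooled peaks of rank 1 to 1042, with signals of at least 92.4. A peak belonged to a gene when its summit lay from 5 kb upstream of the gene's 5′ end to its 3′ end. A pooled peak was called matched in a replicate when that replicate's list had a summit within 100 bp. The pooled list is labelled as peaks and background for input to the IDR step, so many of its entries can be background. The pooled list and the replicate lists are long, so a peak somewhere in a window is common. A pooled one was present for 79.3% of all protein-coding genes. The number of reads behind a peak is unknown, and intervals cover counting error only.

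LIN-32 had an IDR peak at mec-6 and at none of the other 9 genes. The mec-6 peak lay at the very start of the gene and was almost equally strong in both replicates. All 10 genes had at least 1 pooled peak, but the strongest pooled peak of each of the other 9 ranked from 1194 (mec-12) to 17981 (mec-18). The 37 pooled peaks of these 9 genes had −log10 q-values of at most 1.67 (mec-12), below the lowest of the IDR set, 1.92. The next highest was 0.514, at mec-17, and the strongest mec-18 peak had 0.0461. Such weak entries may be background. A share of 1 in 10 genes with an IDR peak (exact Clopper-Pearson 95% interval 0.253 to 44.5%) lay near the 7.73% of all protein-coding genes, so the count shows nothing particular to the 10 genes together. Of the 10 genes, 5 had a pooled peak among the 5000 strongest (exact 95% interval 18.7 to 81.3%), where 29.8% of all genes had one. A pooled peak matched in both replicates was present in 7 of the 10 (34.8 to 93.3%), where 40.9% of all genes had one. Both intervals hold the share of all genes. At mec-2 the 2 replicate summits lay 118 bp apart and were matched only through the pooled summit. Windows of the 10 genes were longer than usual, with a median of 8.63 kb against 7.03 kb over all protein-coding genes.

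**Figure D1:**
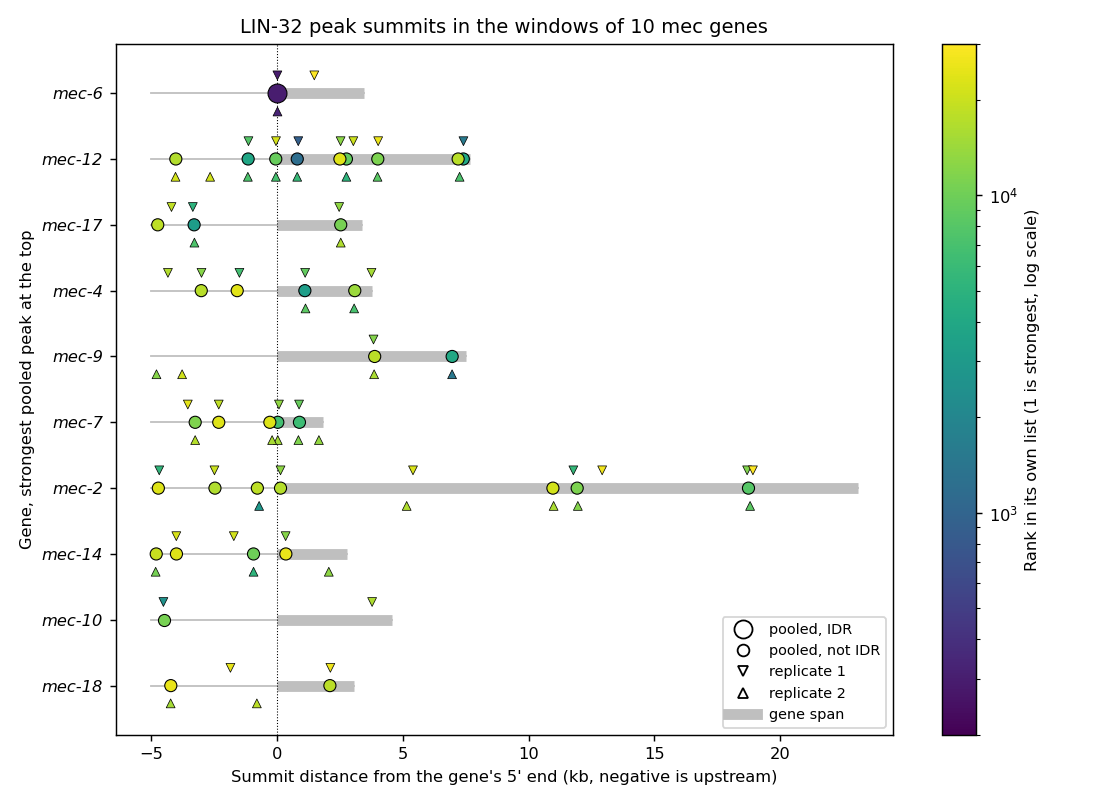
Summit positions in the windows of the 10 mec genes, in kb from each gene's 5′ end, with pooled peaks as circles on the gene line, replicate 1 above and replicate 2 below, coloured by rank in their own list on a log scale. The large dark circle at the 5′ end of mec-6 (pooled rank 296) is the only IDR peak in these windows.

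Among the genes of the channel complex, mec-6 had an IDR peak and mec-2, mec-4 and mec-10 did not. At mec-6 (WBGene00003170, WBcel235 chromosome I, 6724867 to 6728330, plus strand) the pooled summit lay at 6724888, 21 bp downstream of the 5′ end, in exon 1 and in the 5′ UTR. It ranked 294 in replicate 1, 326 in replicate 2 and 296 in the pooled list, with a pooled signal of 171 and a −log10 q-value of 2.95. The replicate summits lay 19 and 10 bp downstream of the 5′ end, so the summits of the 3 lists spanned 11 bp. The highest of its 3 ranks was 1.11 times the lowest. Over the 1007 IDR peaks matched in both replicates the median of that ratio was 1.57, and 6.65% of them had a ratio as low or lower. An IDR summit within 100 bp of a gene's 5′ end was uncommon, with 0.360% of all protein-coding genes having one, and 6.44% of genes with windows of up to 10 kb had an IDR peak anywhere in the window. Apart from this peak the mec-6 window held only a replicate 1 entry of rank 29978 of 30000.

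The pore subunit genes mec-4 and mec-10 had no IDR peak, and their strongest pooled peaks lay at 12.6% and 41.4% of the ranked list. At mec-4 (WBGene00003168, chromosome X, 16803321 to 16807115, minus strand) the strongest pooled peak ranked 3271 and lay 1110 bp downstream of the 5′ end, in coding exon 3. It was matched in both replicates, at rank 8932 in replicate 1 and 8570 in replicate 2. The other 3 pooled peaks of mec-4 were each matched in 1 replicate, and the 2 upstream ones, seen in replicate 1, lay inside the neighbouring gene cas-1. At mec-10 (WBGene00003174, chromosome X, 8465760 to 8470314, minus strand) the only pooled peak ranked 10764 and lay 4480 bp upstream, inside the nuclear hormone receptor gene nhr-14. It ranked 2575 in replicate 1, while replicate 2 had no peak anywhere in the 9.55 kb window. mec-10 was the only one of the 10 genes without any replicate 2 peak, and 76.3% of all protein-coding genes had one.

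The stomatin-like gene mec-2 (WBGene00003166, chromosome X, 5567754 to 5590830, plus strand) is the longest of the set, with 17 annotated coding transcripts that start at 10 distinct 5′ ends. Its 28.1 kb window held 7 pooled peaks, where the average density over the genome would give 7.28. None was an IDR peak, although 24.5% of the 139 genes with windows at least as long had one. The strongest pooled peak ranked 7976 and lay 18735 bp downstream, in a coding exon. It was matched in both replicates, at ranks 11650 and 8512. The matching replicate summits lay 54 and 64 bp from the pooled summit on opposite sides, both in introns. They were 118 bp apart, so they did not match each other within 100 bp. The second pooled peak, of rank 11116, lay 89 bp from an internal 5′ end of mec-2 and was matched in replicate 2 at rank 11770. The nearest replicate 1 summit, of rank 5607, lay 152 bp away, just beyond the matching distance. The strongest entries of the 2 replicates were different ones, at 4675 bp upstream in replicate 1 (rank 5321) and 707 bp upstream in replicate 2 (rank 2908).

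Both tubulin genes had more pooled peaks per kb than any other of the 10 genes, but no IDR peak. The alpha-tubulin gene mec-12 (WBGene00003175, chromosome III, 3131574 to 3139234, minus strand) had 9 pooled peaks in 12.7 kb, against 3.28 at the average density of the genome. Its strongest peak lay 808 bp downstream of the 5′ end, in an intron, and at pooled rank 1194 with a signal of 86.2 it stood just below the IDR set. The replicates differed there, with rank 904 in replicate 1 and 5743 in replicate 2. Another 3 of its peaks were matched in both replicates. These lay 1143 bp upstream (pooled rank 3883, replicate ranks 7852 and 7204), 46 bp upstream (rank 9289, replicate ranks 21792 and 6815) and 4008 bp downstream (rank 11273, replicate ranks 25868 and 8348). The peak in coding exon 5, 7405 bp downstream, ranked 1581 in replicate 1, and its nearest replicate 2 summit was 147 bp away. Some of the 9 pooled peaks overlapped each other as intervals, so not all were separate regions.

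The beta-tubulin gene mec-7 (WBGene00003171, chromosome X, 7774856 to 7776689, minus strand) is the shortest of the 10 and had the highest density of pooled peaks, 5 in 6.83 kb. Its strongest peak, of pooled rank 6155, lay 895 bp downstream in coding exon 3 and ranked 9384 in replicate 1 and 11354 in replicate 2. Another lay 35 bp downstream of the 5′ end, in the 5′ UTR, at pooled rank 6609 and replicate ranks 13185 and 14865. Thus mec-7 and mec-6 both had a doubly matched summit within 50 bp downstream of their 5′ ends, but that of mec-7 ranked far below the IDR set. The intervals of the mec-7 peaks 35 bp downstream and 280 bp upstream overlapped, so its 5 pooled peaks were not all separate regions. Coding sequences of tubulin genes are alike, and how reads shared between copies were placed is not given in the sources used here, so the peaks in tubulin exons are uncertain.

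The alpha-tubulin acetyltransferase gene mec-17 (WBGene00003178, chromosome IV, 7983802 to 7987183, minus strand) had 3 pooled peaks. The strongest, of pooled rank 3219, lay 3290 bp upstream inside the cuticle collagen gene col-115, which runs on the opposite strand. It ranked 4980 in replicate 1 and 7448 in replicate 2. The next, of pooled rank 10840, lay 2535 bp downstream of the gene's 5′ end but 28 bp from the 5′ end of a shorter mec-17 transcript, and it was matched at ranks 13110 and 16445. The remaining peak, of rank 18085, was the only one of the 38 pooled peaks of these genes with no match in either replicate.

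Among the genes for the secreted protein MEC-9 and the enzyme-like MEC-14 and MEC-18, mec-9 had a doubly matched peak. At mec-9 (WBGene00003173, chromosome V, 9907615 to 9915121, minus strand) the strongest pooled peak ranked 4024 and lay in an intron 6962 bp downstream of the 5′ end. It ranked 1499 in replicate 2, and the nearest replicate 1 summit was 3148 bp away. The other mec-9 peak, 3884 bp downstream in an intron, was weak but matched in both replicates, at ranks 11782 and 15727. At mec-14 (WBGene00003176, chromosome III, 7190189 to 7192992, minus strand) none of the 4 pooled peaks was matched in both replicates. The strongest of them ranked 9960, lay 930 bp upstream and had a replicate 2 rank of 5161, with the nearest replicate 1 summit 783 bp away. mec-18 (WBGene00003179, chromosome X, 4271165 to 4274216, minus strand) had the weakest entries of all, with pooled ranks of 17981 in a coding exon and 25222 at 4216 bp upstream, inside twk-28. The former was matched in replicate 1 at rank 26274 and the latter in replicate 2 at rank 15143.

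**Figure D2:**
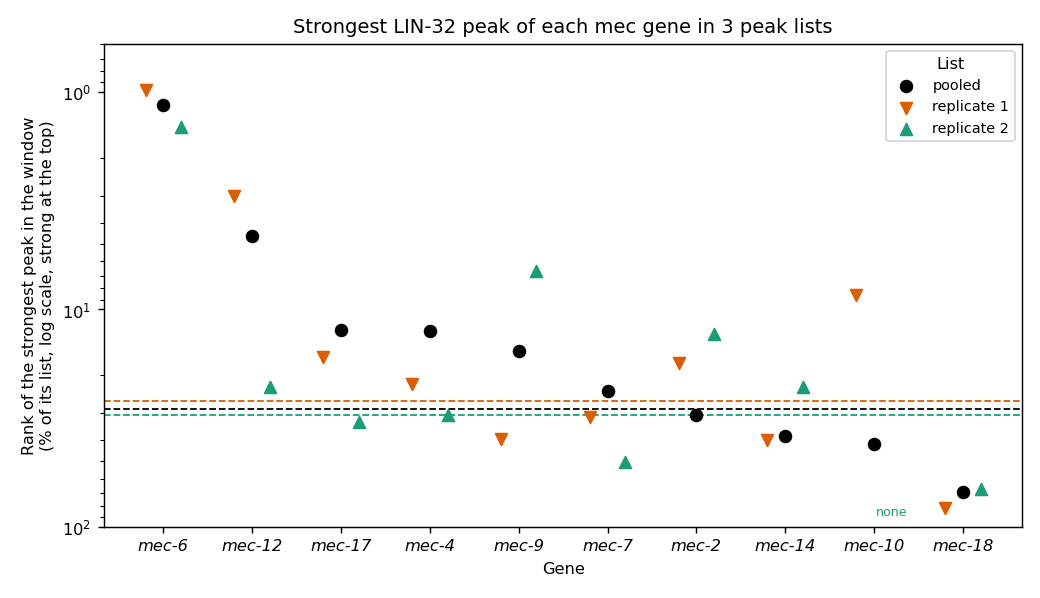
Rank of the strongest peak in each gene's window as a percentage of its list (log scale, strong at the top) in the pooled, replicate 1 and replicate 2 lists, whose strongest peaks can be different ones, with dashed lines at the median over all protein-coding genes with a peak. The mec-6 points lie at 1.14%, 0.98% and 1.44% and close together, while mec-9 (39.3% in replicate 1, 6.63% in replicate 2) and mec-12 (3.01% and 22.8%) are spread.

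The strength of the best pooled peak set the 10 genes in the order mec-6, mec-12, mec-17, mec-4, mec-9, mec-7, mec-2, mec-14, mec-10 and mec-18. In replicate 2 alone mec-9, mec-2, mec-12 and mec-14 followed mec-6, and in replicate 1 alone mec-12, mec-10, mec-17 and mec-2 did, so the order after mec-6 differed between replicates. The pooled ranks of mec-17 and mec-4, 3219 and 3271, lay closer than the ranks of either peak in the 2 replicates. The place of mec-17 rests on its upstream peak inside col-115, and its best rank was 10840 with windows reaching 2 kb upstream or ending at the neighbouring gene. The share of all protein-coding genes with an equally strong or stronger best pooled peak was 2.31% for mec-6, 8.73% for mec-12, 20.9% for mec-17 and 21.2% for mec-4. It was 50.9% for mec-10 and 67.8% for mec-18. The median best rank was 5089.5 over the 10 genes and 7432 over the 15839 genes with a pooled peak.

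Peaks lay across the windows, both at and away from the starts of the genes. Doubly matched summits lay within 50 bp of the gene's 5′ end at mec-6 (21 bp), mec-7 (35 bp) and mec-12 (46 bp). Of the 38 pooled peaks, 18 lay upstream of the 5′ end, 10 in introns, 8 in coding exons and 2 in a 5′ UTR, those of mec-6 and mec-7. For 16 of the 38 the nearest 5′ end belonged to another gene. Shares by position were not computed over all pooled peaks, so these counts show nothing particular to the 10 genes. The upstream parts alone, 50000 bp in all, held 0.360 pooled peaks per kb. The density was 0.342 pooled peaks per kb (exact Poisson 95% interval 0.242 to 0.469), and the nuclear genome as a whole had 0.259 per kb. No tRNA gene lay within 500 bp of these summits, and the closest was 1.76 kb away. The share of all pooled peaks with a tRNA gene within that distance was not computed.

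Replicate support among these peaks was like that of the lists as a whole. Both replicates matched 12 of the 38 pooled peaks (31.6%, exact 95% interval 17.5 to 48.7%), and 28.8% of all nuclear pooled peaks were matched in both. Replicate 1 alone matched 12 (31.6%) and replicate 2 alone 13 (34.2%), against 35.0% and 23.3% of all nuclear pooled peaks. That left 1 without a match (2.63%, against 12.9%). Outside mec-6, the doubly matched peaks ranked from 904 to 25868 in replicate 1 and from 5743 to 16445 in replicate 2. Of the 37 replicate 1 peaks in these windows, 11 (29.7%) had a replicate 2 summit within 100 bp, against 24.7% of the whole list. Of the 32 replicate 2 peaks, 11 (34.4%) had a replicate 1 summit, against 32.8% of the whole list.

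**Figure D3:**
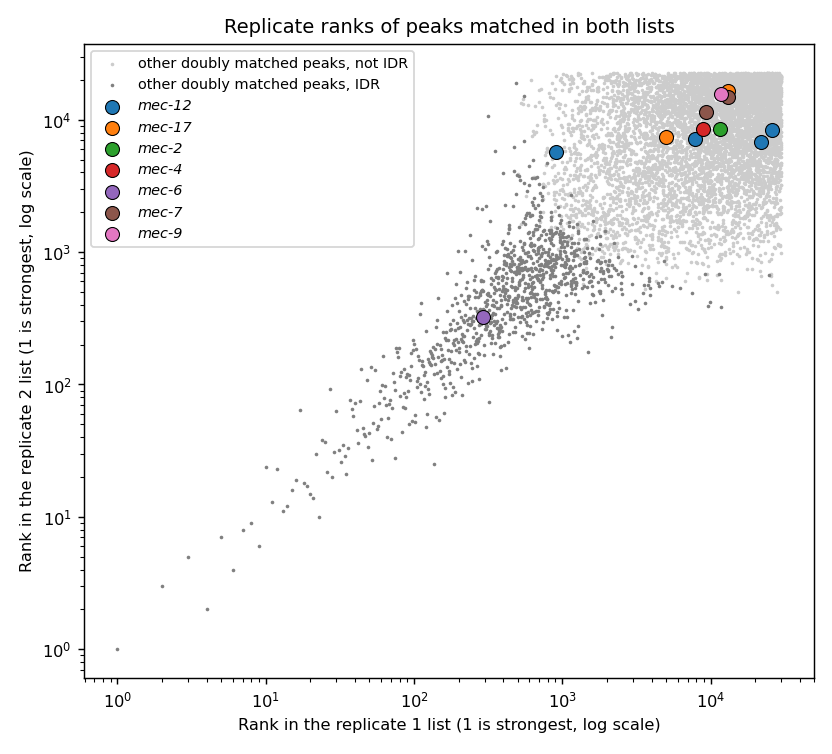
Rank in the replicate 1 list against rank in the replicate 2 list (both log scales) for pooled peaks matched in both, in light grey outside and dark grey inside the IDR set, with the 12 peaks of 7 mec genes in colour. The mec-6 peak (294 and 326) lies on the diagonal band of IDR peaks, the strongest mec-12 peak (904 and 5743) at its edge, and the other 10 in the broad cloud outside the IDR set.

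The sequences at the strongest summits show which of these peaks hold an E-box, the CANNTG hexamer that bHLH dimers bind. The hexamers CAGATG and CAGCTG, searched on both strands within 50 bp of the summit, are the Atonal-type sites. The mec-6 peak held CAGATG with its first base 10 bp downstream of the 5′ end, and a CAGCTG began 52 bp upstream of the 5′ end, outside the window around the summit. The bases within 50 bp of the strongest pooled summit follow for the other 6 genes with a doubly matched pooled peak, from the WBcel235 genome of RefSeq, 5′ to 3′ on the gene's strand, with any CANNTG in capitals.
mec-12, chrIII:3138376-3138476, strand minus: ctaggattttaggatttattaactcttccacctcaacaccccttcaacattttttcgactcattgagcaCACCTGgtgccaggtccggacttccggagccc
mec-17, chrIV:7990423-7990523, strand minus: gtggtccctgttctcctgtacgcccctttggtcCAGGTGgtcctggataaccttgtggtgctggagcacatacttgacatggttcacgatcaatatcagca
mec-4, chrX:16805955-16806055, strand minus: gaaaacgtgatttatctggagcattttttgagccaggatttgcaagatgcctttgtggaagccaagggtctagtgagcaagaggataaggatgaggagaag
mec-9, chrV:9908109-9908209, strand minus: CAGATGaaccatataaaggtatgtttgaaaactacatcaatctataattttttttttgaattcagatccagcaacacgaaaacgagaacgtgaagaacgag
mec-7, chrX:7775744-7775844, strand minus: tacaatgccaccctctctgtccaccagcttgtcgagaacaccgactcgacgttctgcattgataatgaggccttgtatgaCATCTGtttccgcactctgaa
mec-2, chrX:5586439-5586539, strand plus: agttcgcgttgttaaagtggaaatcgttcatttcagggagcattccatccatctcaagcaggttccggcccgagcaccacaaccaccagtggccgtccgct

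Of these 6 summits, those of mec-9 and mec-7 held an Atonal-type hexamer, written CAGATG in the mec-9 sequence and CATCTG, its reverse complement, in the mec-7 sequence. Read in chromosome direction, these hexamers began 45 bp (mec-9) and 35 bp (mec-7) from the summit. The mec-12 and mec-17 summits held CACCTG on one strand or the other, and those of mec-4 and mec-2 held no CANNTG. Over all 38 pooled peaks an Atonal-type hexamer was present in 5 (13.2%, exact 95% interval 4.41 to 28.1%), against 10% of all nuclear pooled peaks and 31.3% of the IDR peaks. The 5 belonged to mec-6, mec-7, mec-9, mec-12 and mec-18, with 1 each. The mec-12 one was the doubly matched peak 1143 bp upstream. The mec-9 one was matched in replicate 2 alone, and the doubly matched mec-9 peak held no CANNTG. Any CANNTG was present in 17 of the 38 (44.7%), against 38.7% of all nuclear pooled peaks.

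The promoters of the 10 genes, from 250 bp upstream to 50 bp downstream of the 5′ end, were also searched for AATGCAT, a heptamer known from promoters of touch receptor neuron genes, on both strands. It was present in 5 of the 10 promoters, those of mec-6, mec-7, mec-10, mec-17 and mec-18, and in 4.52% of all 19973 promoters. The heptamer is known from genes of this kind, and its sites were chosen after values were seen. The higher share here is therefore no independent result. The sites other than that of mec-6 are shown with 8 bases to each side on the gene's strand and the heptamer, in either orientation, in capitals.
mec-7, chrX:7776804-7776826, strand minus: cgaatgccATGCATTtgttgatg
mec-10, chrX:8470316-8470338, strand minus: cacttacaAATGCATTcgttttg
mec-17, chrIV:7987231-7987253, strand minus: tcaccaaaAATGCATgagaatgg
mec-18, chrX:4274270-4274292, strand minus: gcactggtATGCATTtgtgatgc

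In mec-10 the 2 orientations overlap, and in mec-7 and mec-18 the heptamer runs into a CATTTG, which is an E-box of the CANNTG form but not of the Atonal type. The mec-18 stretch overlaps a 5′ UTR of another gene, C52B9.10. An Atonal-type hexamer was present in the promoters of mec-6 and mec-18 among the 10, and in 18.7% of all promoters. Of the 38 pooled peaks 2 held AATGCAT within 50 bp of the summit, the mec-7 peak 280 bp upstream (rank 23118) and the mec-10 peak 4480 bp upstream. It was held by 1.52% of all nuclear pooled peaks and 1.34% of the IDR peaks. The promoter sites shown above are other copies and lie outside these summit windows, that of mec-7 beginning 129 bp upstream. Apart from mec-6, 2 genes had a pooled summit in this promoter window, mec-7 and mec-12. Their 250 bases before the 5′ end are shown with CANNTG and AATGCAT, the latter in either orientation, in capitals.
mec-7, chrX:7776690-7776939, strand minus: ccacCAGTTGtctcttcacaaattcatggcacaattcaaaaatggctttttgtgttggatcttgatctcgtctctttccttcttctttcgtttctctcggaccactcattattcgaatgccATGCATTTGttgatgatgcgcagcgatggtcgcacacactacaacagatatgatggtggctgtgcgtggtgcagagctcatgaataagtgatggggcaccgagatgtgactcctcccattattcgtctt
mec-12, chrIII:3139235-3139484, strand minus: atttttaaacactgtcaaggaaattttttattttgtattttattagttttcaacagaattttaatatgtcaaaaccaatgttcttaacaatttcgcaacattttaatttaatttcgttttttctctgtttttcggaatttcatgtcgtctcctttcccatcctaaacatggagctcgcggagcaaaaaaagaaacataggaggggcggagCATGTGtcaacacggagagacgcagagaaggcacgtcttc

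The mec-7 stretch ends just before that gene's 5′ end and holds the heptamer, running into a CATTTG, besides a CAGTTG. The mec-12 stretch contains the summit 46 bp upstream of the 5′ end and a CATGTG, which reads CACATG on the other strand. Neither stretch holds an Atonal-type hexamer. A match of these letters is a description of the sequence and does not show a bound site.

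Genes that act upstream of the terminal genes, and other genes of touch reception, included 2 with an IDR peak. These were, in a list of 15 such genes (13.3%, against 7.73% of all protein-coding genes), egl-46 (strongest peak of pooled rank 31, replicate ranks 31 and 32) and egl-44 (391, replicate ranks 424 and 408). EGL-46 and EGL-44 act together in the FLP neuron, where they keep touch receptor genes off. The selector genes had no IDR peak. At unc-86 the strongest pooled peak ranked 1984 and lay 125 bp upstream, with ranks of 7795 in replicate 1 and 2019 in replicate 2. At mec-3 it ranked 3777 and lay 173 bp upstream, with rank 2512 in replicate 1 and no match in replicate 2. The median best pooled rank of the 15 genes was 5637, close to the 5089.5 of the 10 terminal genes.

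Among gene families to which the 10 genes belong, other members had IDR peaks in some families and hardly any in others. Of 14 other tubulin genes 5 had an IDR peak (35.7%), tba-7 (pooled rank 95), tba-1 (131), tbb-4 (510), ben-1 (545) and tba-2 (742), while mec-7 and mec-12 had none. The summits lay within 500 bp of the 5′ end at tba-7, tba-1, tbb-4 and tba-2, and 1741 bp upstream at ben-1. Of 9 other stomatin genes 3 had one (33.3%), sto-4 (273, with the summit 125 bp upstream), sto-2 (289) and sto-1 (666, with the summit 2487 bp upstream and nearer to F08C6.5), while mec-2 had none. Of 28 other degenerin/ENaC channel genes 1 had one (3.57%), asic-2 (410), whose peak lay 4802 bp upstream and nearer to T28F4.1, and mec-4 and mec-10 had none. None of the 4 other paraoxonase-like genes had one, while mec-6 did. These shares stand beside the 7.73% of all protein-coding genes, the lists are small, and no test of a difference between a family and its touch receptor member was made. The lists were chosen with earlier results of these data known.

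**Figure D4:**
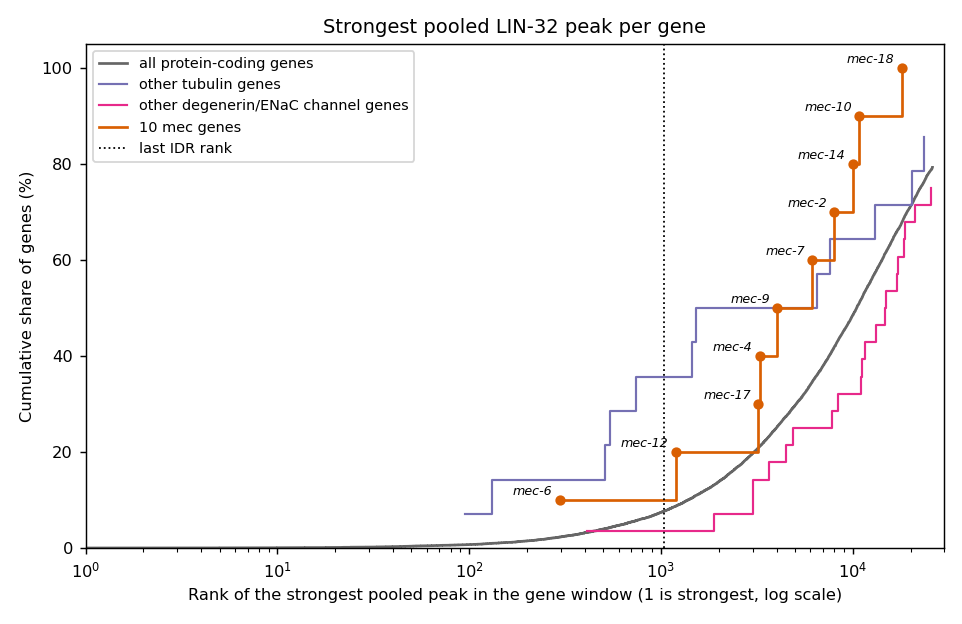
Cumulative share of genes (%) by the rank of the strongest pooled peak in the window (log scale) for all protein-coding genes, the 10 mec genes, 14 other tubulin genes and 28 other degenerin/ENaC genes, with a dotted line at the last IDR rank, 1042. Of the 10 mec genes mec-6 lies left of that line and mec-12 (1194) just right of it, and the last of the 10 is reached at rank 17981.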

How the data were processed

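ChIP-seq peaks of tagged LIN-32 in 2 replicates were read from 4 deposited lists. Per the deposited notes on file derivation, the authors called 1 list on each replicate and 1 on both together, against the same control alignment, and derived the IDR set from these 3. Per the labels the coordinates are ce11, which is the WBcel235 assembly. Neither labels nor files name the aligner, the peak caller or the threshold for IDR. Peak signal, as the authors deposited it, has no stated scale and served only for ranks within one list. The deposited −log10 q-value is the authors' own. Peak widths were nearly constant, so summits were used. Read depth is unknown.

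Summits on the 6 nuclear chromosomes were assigned to windows of genes from Ensembl release 115. Ties in rank did not occur. No test was run, as there is 1 group. Shares carry exact (Clopper-Pearson) 95% intervals. All 10 members are named; other genes are named when a fixed list member had an IDR peak, or when nearest to a peak, and unc-86 and mec-3 regardless. The AATGCAT sites and the 100 bp distance to 5′ ends were chosen after values were seen. Members and lists were chosen with earlier results of these data known. The window assignment was tested on simulated data, where 200 of 200 planted peaks were found in their genes. Alternatives covered the window, matching distance, rank limit, E-box window, IDR strength and each replicate alone. Python 3.11.15, numpy 2.4.6, pandas 2.3.3, scipy 1.17.1 and matplotlib 3.10.9 were used.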

Additional observations from a re-analysis of the deposited data

How the results depend on the processing

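Of 60 recomputed values of 8 quantities, 45 stayed near the value reported. Near meant within 1.5 times for counts and within the counting interval for shares and density. For the median best rank it meant from 1194 to 10764, the wide spread of the 10 genes without their strongest and weakest. With windows reaching 10 kb upstream 2 genes had an IDR peak, as mec-4 gained one of rank 785 near cas-1, and without the gene body 0 did, because the mec-6 summit lies just inside the gene. Without the gene body, also, 2 genes had a doubly matched peak, 2 had one among the 5000 strongest, 16.7% of pooled peaks were doubly matched and the median best rank was 11092.5. With 1 replicate left out, the count of genes with an IDR-strength peak ran from 1 to 2 (mec-12 was added without replicate 2), of genes with a peak among the 5000 strongest from 3 to 4, and the share of pooled peaks matched in the remaining list from 63.2 to 65.8%, as a single match is easier to meet. Ranks there come from lists of other lengths. Among the 2500 strongest pooled peaks 2 genes had one, and among the 10000 strongest 8 did. Summits within 50 bp left 4 genes with a doubly matched peak, and any overlap of intervals doubly matched 50% of the peaks. An Atonal-type hexamer was found in 5.26% of the pooled peaks within 25 bp of the summit and in 23.7% within 100 bp. Any CANNTG was found in 44.7%. No paired analysis was possible because there is only 1 group. Of 36 best ranks recomputed per gene over the windows, 25 were unchanged. The best rank of mec-17 was 10840 with 2 kb upstream and with windows ended at the neighbouring gene, and with 10 kb upstream those of mec-4 and mec-14 were 785 and 3267. Depth per peak is unknown, so an absent IDR peak does not show absent binding.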

Other observations

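The mec-6 peak is shared by the windows of W02D3.4, which lies 1807 bp upstream on the opposite strand, and W02D3.13. Their ranks equal those of mec-6 because the peak is the same one. Among the other genes, of 13191 with a peak in each list, the nearest to mec-6 by its ranks in the pooled, replicate 1 and replicate 2 lists was Y116F11A.6, with ranks 299, 292 and 357 and a summed absolute log2 rank ratio of 0.155.

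The nearest IDR peak to the 5′ end of each of the other 9 genes lay from 8.61 kb (mec-4) to 214 kb (mec-14) away. The mec-4 one had a signal of 106 and lay 2068 bp from the 5′ end of cas-1, which encodes a cyclase-associated actin regulator. Next came mec-7, with an IDR peak 17.9 kb upstream beside ZK154.6 (signal 109), and mec-17, with one 28.8 kb upstream beside C26B2.7 (104). The strongest of these neighbouring peaks lay 65.8 kb from mec-10 (signal 326), and its nearest 5′ end, that of sulp-3, was 3848 bp away. The next strongest lay 55.2 kb from mec-9 (297), and its nearest 5′ end, that of unc-41, was 5899 bp away.

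Some of the higher entries in a single replicate had no counterpart in the other. The mec-9 intron summit ranked 1499 of 22601 in replicate 2, and the mec-10 upstream summit 2575 of 30000 in replicate 1. At mec-2 the summit 707 bp upstream ranked 2908 in replicate 2, with no replicate 1 summit within 100 bp.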
